A study of Mus musculus with 22 samples.

Results

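DNA replication in the mouse colon crypt was described through 50 genes of its machinery, of the 24421 genes in the count files. They were taken by name, and earlier results of these data were known when they were chosen. By role they were the 6 subunits of the origin recognition complex, 3 licensing genes, the 6 subunits of the MCM helicase, 7 genes of helicase activation, 9 of polymerases and primase, 6 of the sliding clamp and its loader, 6 of single-strand binding, Okazaki fragment joining and fork checkpoint, 5 of nucleotide supply and 2 of chromatin assembly. All 50 passed the filter on low counts. RNA was sequenced in 22 libraries of live Epcam+ Cd31- Cd45- cells, sorted from the colons of untreated, wild type male C57BL/6N mice aged 5 to 7 weeks, with at least 2500 cells per sample. The groups were stem cells (Stem, 3 libraries, Cd44highest Cd24low Ckit-), absorptive progenitors (AbsPro, 3 libraries, Cd44med/hi Cd24low Ckit-), a secretory gate (SecPDG, 4 libraries, Cd44hi Cd24med Ckitmed), tuft cells (Tuft, 5 libraries, Ckit+ Cd24hi), enterocytes (Ent, 5 libraries, Cd44low/- Cd24-) and enteroendocrine cells (EEC, 2 libraries, Cd44low/- Cd24+). By the study, SecPDG held mainly early secretory and deep crypt secretory cells, with goblet cells possibly a minor part. By the study's methods a Stem or AbsPro library came from a single mouse and the others from several pooled mice, with replicates from independent mice and sorts. Libraries are numbered within a cell type (Stem 1, Stem 2), and the numbers were not treated as pairs across cell types.

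Before S phase, the origin recognition complex marks origins, and Cdc6 and Cdt1 load the MCM helicase on them, a step that geminin later blocks. Cdc45 and the GINS complex turn the loaded helicase into a moving fork, where primase and the polymerases copy both strands, the clamp PCNA holds the polymerases on DNA, and nucleases and ligase join the lagging strand. Most of these genes are transcribed at the G1 to S transition under E2F factors, and in the crypt cycling is known to be confined to stem and progenitor cells of the lower part, while mature cells have left the cycle. In sorted bulk samples, fewer cycling cells and less RNA of a gene per cell cannot be told apart.

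Counts on genes came to 15314543 to 22462518 per library in Stem, AbsPro and SecPDG, 9930648 to 20892532 in Tuft, 5950619 to 12966128 in Ent, and 4122122 and 13132315 in EEC 1 and EEC 2. Summed marker levels set Stem apart for stem cell markers, 18200 to 22980 normalized counts against at most 10080 elsewhere, Tuft for tuft markers, 24480 to 65650 against at most 8078, and EEC for enteroendocrine markers, 599700 to 1723000 against at most 27760. The stem cell markers (Lgr5, Ascl2, Smoc2, Axin2 and Cd44) include Cd44, which the gates used, so this list is not independent of the sort. Absorptive markers did not separate Ent (56110 to 82490) from AbsPro (73080 to 109300), and EEC held 24950 and 144900 of them. Secretory and goblet markers did not separate SecPDG (821500 to 3239000) from Tuft (783700 to 1181000). The 2 EEC libraries resembled each other least, with a Spearman's rho across genes of 0.573 against 0.866 or more within other cell types. Background was read from 1574 genes of 6 families with little known expression in colon epithelium (olfactory, vomeronasal and trace amine receptors, keratin-associated proteins and beta-defensins). These took 13.6 to 161.5 CPM (counts scaled to a common library total) in Stem, AbsPro and SecPDG, 185.2 to 1521 in Tuft, 806.3 to 4016 in Ent and 636.2 and 7264 in EEC.

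The replication genes were highest in Stem and lowest in Ent and EEC, with the progenitors and Tuft in between. The summed level of the 50 genes was 58630 ± 6007 normalized counts in Stem (SD, n = 3), 41980 ± 5638 in SecPDG (n = 4), 32090 ± 5277 in AbsPro (n = 3), 26230 ± 6491 in Tuft (n = 5), 12140 ± 2708 in Ent (n = 5) and 11180 ± 792 in EEC (n = 2). The Stem mean was the highest of the 6 cell types for 42 of the 50 genes, and the lowest mean lay in EEC for 33 genes, in Ent for 16 and in AbsPro for 1. No gene was called higher than Stem in any cell type, where 0.496%, 3.38%, 7.84%, 10.7% and 10.8% of all genes were in AbsPro, SecPDG, Tuft, Ent and EEC. A normalized count is a count scaled by TMM to a common library size, and a gene was called at an adjusted p under 0.01 by edgeR's quasi-likelihood F test if its average over the 22 libraries was also 50 normalized counts or more. The 5 comparisons with Stem share its 3 libraries, so their values are given side by side only.

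**Figure D1:**
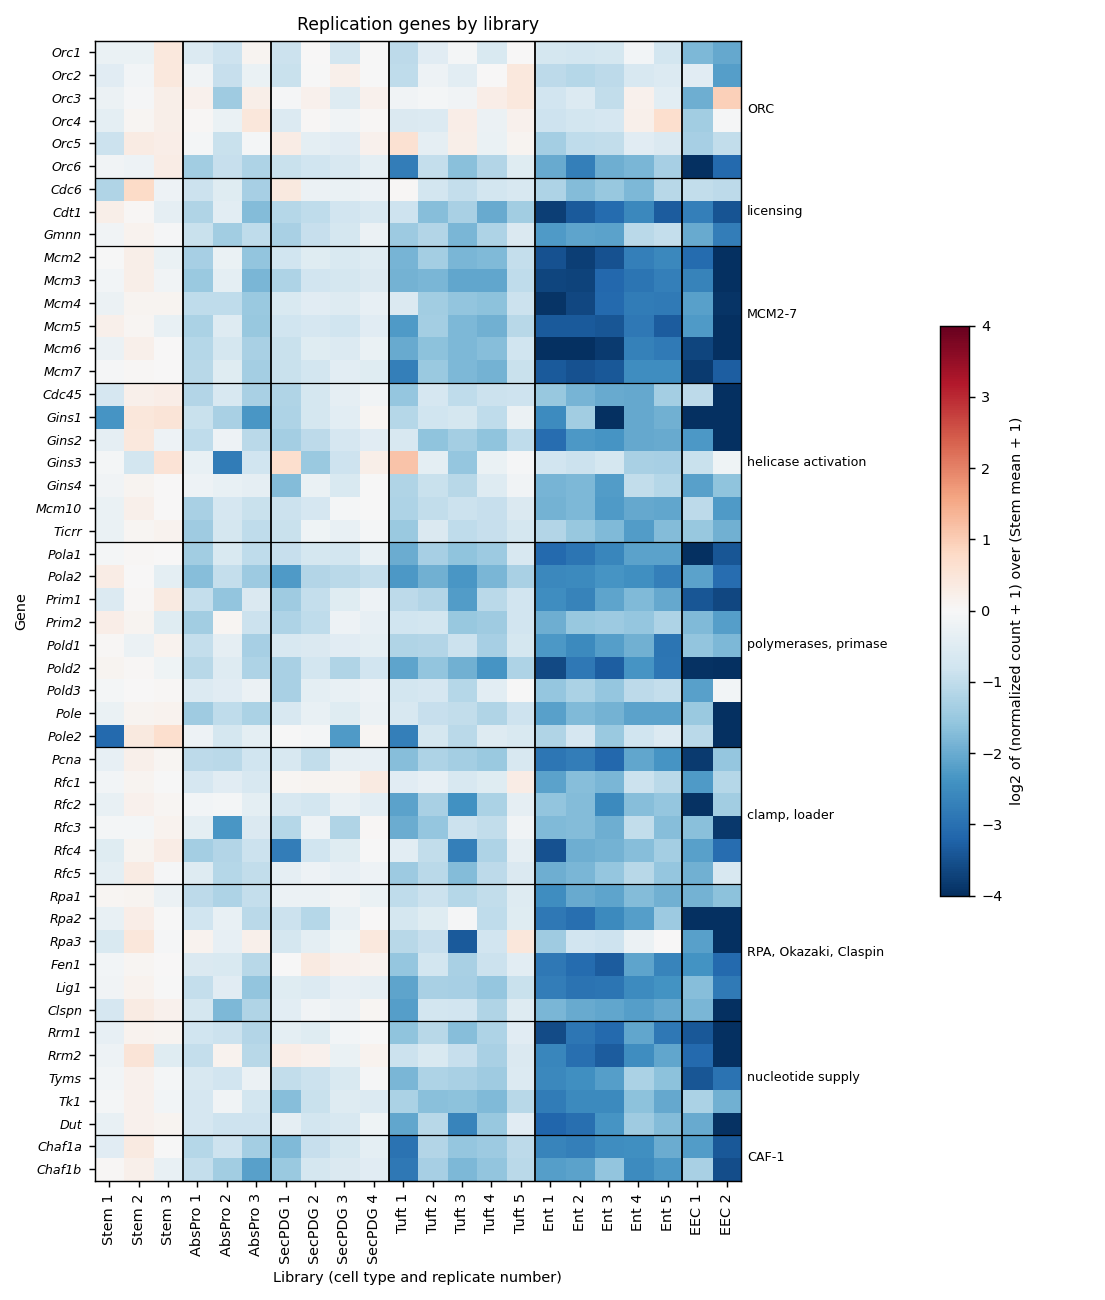
Heat map of the 50 replication genes (rows, by role) in the 22 libraries (columns, by cell type); colour is log2 of the normalized count plus 1 over the Stem mean plus 1, and values beyond -4 or 4 take the end colours. The MCM rows are the darkest block in Ent and EEC, while the rows of Orc2 to Orc5 stay pale in most libraries.

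The comparison of AbsPro with Stem, the step out of the stem cell state on the absorptive side, gave lower values for most of the genes, but none passed the threshold. The fitted log2 fold change was below 0 for 48 of 50 genes, with a median of -0.93 and a range of -1.40 to 0.10, where the median of all 13188 genes averaging 50 or more normalized counts was 0.04. Of the 50 genes 0 were called lower, against 0.0922% of all 22781 genes tested. At an unadjusted p under 0.05, 32 of 50 were lower and 0 higher, against 3.88% and 5.22% of all genes, and DESeq2's Wald test called 1, Rpa1, against 0.5% of the genes it tested. The libraries of AbsPro lay below all 3 Stem libraries for 34 genes, against 6.74% of all genes. In a fit of these 6 libraries alone, 10 genes were called lower (Mcm4, Mcm6, Pola2, Pole, Pcna, Rpa1, Clspn, Rrm1, Chaf1a and Chaf1b), against 1.07% of the genes of that fit. Leaving out the 5 libraries of mature cells with background over 1500 CPM, an alternative chosen after the values were seen, gave 7 calls, against 0.405% of all genes. AbsPro 2 stood apart from the other AbsPro libraries in the balance of these genes. Its MCM genes summed to 13100 normalized counts against 8112 and 6769, and its origin recognition genes to 1406 against 2252 and 2548, and it had the lowest background of the 22 libraries, 13.6 CPM. Some markers listed for other cell types were also higher in AbsPro, where 0.496% of all genes were called higher than in Stem. Secretory and goblet markers were called higher than in Stem for 3 of 8 genes, with sums of 90870 to 280500 normalized counts against 21440 to 35060 in Stem. The study lists Fcgbp, Tff3 and Zg16, all among these markers, with the top genes activated in both progenitors. Enteroendocrine markers were called higher for 2 of 8, with sums of 3934 to 15650 against 587 to 1082, and stromal markers for 1 of 8, with sums of 187.1 to 1493 against 95.01 to 255.5. AbsPro 2 had the lowest sum of its group in all 3 lists. No tuft, immune or endothelial marker was called. Whether these markers come from other cells, and the part of such cells in the result, was not tested.

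On the secretory side, SecPDG against Stem, the values were nearer to Stem. The median log2 fold change was -0.51, and 1 of 50 genes was called lower, Pola2, against 1.59% of all genes tested. At an unadjusted p under 0.05, 13 of 50 were lower and 0 higher, against 8.67% and 8.76% of all genes. The SecPDG libraries lay below all Stem libraries for 18 genes, against 9.77% of all genes. Leaving out Stem 1, SecPDG 1 or SecPDG 2 ended the call of Pola2, so that 0 genes remained. Between the progenitors, the SecPDG mean was above the AbsPro mean for 40 of 50 genes, with a median log2 fold change of 0.33. None was called in either direction, against 2% of all genes called higher in SecPDG and 1.72% called lower. At an unadjusted p under 0.05, 9 were higher in SecPDG and 0 lower, against 6.81% and 7.38% of all genes. The SecPDG libraries lay above all AbsPro libraries for 10 genes, against 7.39% of all genes. Some other analyses called 1 to 6 genes higher in SecPDG, counts below or not far above the share of all genes. DESeq2's Wald test called 2, Rfc1 and Rpa1, against 4.58% of the genes it tested. Size factors and upper quartile factors each called 3, Rfc1, Rpa1 and Fen1, against 3.42% and 3.34% of all genes. A fit of these 7 libraries alone called 6, those 3 with Pole, Clspn and Rrm1, against 7.09% of its genes, and without the high-background libraries 1 was called, Rpa1, against 3.34%.

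Among the mature cells, the mean was higher in Tuft than in Ent for 47 of 50 genes, a difference that was not tested itself. In Tuft 26 of 50 genes were called lower than in Stem, against 4.23% of all genes, with a median log2 fold change of -1.02. Its libraries lay below all Stem libraries for 34 genes, against 10.8% of all genes. The count was 15 without Stem 2 and 16 without Tuft 3, and 13 genes were called in every alternative run, Cdt1, Chaf1a, Lig1, Mcm2, Mcm3, Mcm5, Mcm6, Mcm7, Pola1, Pola2, Pold2, Tk1 and Tyms. In Ent 42 of 50 were called lower, against 11.5% of all genes, with a median of -2.03. The Ent libraries lay below Stem for 41 genes, against 15.2%, and 29 genes were called in every alternative. In EEC 41 of 50 were called lower, against 9.13% of all genes, with a median of -2.50. Both EEC libraries lay below Stem for 44 genes, against 20.8%, and 12 were called in every alternative. The EEC count rests on 2 libraries that disagree and was 12 in a fit of EEC and Stem alone, against 2.88% of the genes of that fit. All of these calls were lower and none changed sign in any alternative.

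Within each lineage, 27 of 50 genes were called lower in Ent than in AbsPro, against 7.97% of all genes, with a median log2 fold change of -1.13, and 33 had ranges below AbsPro, against 14.1%. DESeq2's Wald test called 17 of these, against 3.26% of the genes it tested, and without the high-background libraries, which leaves Ent 4 and Ent 5, 12 were called, against 0.886%. Size factors, library totals and upper quartile factors each called 18, against 3.11%, 3.51% and 2.99% of all genes. With these the median over the 50 genes was -0.56, -0.60 and -0.58. The median of all genes averaging 50 or more was -0.38 with TMM and 0.27, 0.21 and 0.22 with these scalings. Under each scaling 46 of the 50 genes lay below the median of all genes. In Tuft against SecPDG 1 of 50 was called lower, Fen1, against 0.351% of all genes, with a median of -0.56, and 24 were lower at an unadjusted p under 0.05, against 5.51%. The ranges lay apart for 9 genes, against 3.22% of all genes. The count of 1 was unstable. DESeq2's Wald test called 4, against 0.677% of the genes it tested, and a fit of these 9 libraries alone called 9, against 2.88%. Leaving out 1 library gave 10 without Tuft 5 and 0 without SecPDG 3, SecPDG 4, Tuft 1, Tuft 2 or Tuft 3. In EEC against SecPDG 31 of 50 were called lower, against 10.1% of all genes, with a median of -1.86, and 38 had ranges below SecPDG, against 18.5%. That count fell to 18 with DESeq2's Wald test, against 8.41% of the genes it tested, and to 11 in a fit of these 6 libraries alone, against 5.54%. The difference of Ent from AbsPro was compared directly with that of Tuft from SecPDG, and no library is shared between them. The contrast was below 0 for 47 of 50 genes, with a median of -0.66. Of all genes averaging 50 or more normalized counts, 67.9% were below 0, with a median of -0.29. Cdc6, Clspn, Gins3, Gmnn, Orc1, Rpa3 and Ticrr turned sign in this contrast under each other scaling, and others under some. Of the 50 genes 0 were called by edgeR, where 0.228% of all genes were called lower and 0.136% higher. DESeq2's Wald test also called 0, against 0.552% of all genes lower. At an unadjusted p under 0.05, 18 of 50 were lower, among them all 6 MCM genes, and 0 higher, against 6% and 3.42% of all genes. Cdt1 had the smallest adjusted p of this contrast (log2 fold change -1.63, SE 0.46, adjusted p = 0.0801).

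Background and some markers of other cells were higher in the mature cell types. Of all genes, 7.84%, 10.7% and 10.8% were called higher than in Stem in Tuft, Ent and EEC. The calls of 2 of 12 immune markers in each, and of 1 of 8 stromal markers in Tuft, were not far above these shares. From the background per kilobase of exon, the counts that a gene of the same length would take came to at most 0.961%, 2.21% and 1.5% of any gene's mean in Stem, AbsPro and SecPDG. They came to 1.32% to 12.1% in Tuft, 4.96% to 51.3% in Ent and, in EEC, from 4.13% to above the whole mean of Gins2 and Rpa2, while Gins1 had no count there. Among the 40 genes with a share of at most 20% in Ent and Stem, 33 were called lower in Ent, and among 24 such genes in EEC and Stem, 20 were called lower in EEC. Of all genes, whatever their background, 11.5% and 9.13% were called lower in Ent and EEC. The percentage among all genes under the same limit was not computed. The 5 libraries over 1500 CPM were Tuft 2, Ent 1, Ent 2, Ent 3 and EEC 1, and without them 30, 32 and 33 genes were called lower than Stem in Tuft, Ent and EEC, against 5.9%, 4.05% and 6.09% of all genes. Endothelial markers were called higher than in Stem for 4 of 4 genes in each of Tuft, Ent and EEC, with sums of 74.25 to 164.5 normalized counts in Stem, 230.8 to 715.3 in Tuft, 464.1 to 1158 in Ent and 1303 and 1858 in EEC. Immune markers were called higher for 2 of 12 in each of these, with sums of 163.8 to 203.5 in Stem, 1598 to 3573 in Tuft, 490.4 to 1301 in Ent and 715.9 and 3075 in EEC, where Cd79a was at 0. Stromal markers were called higher for 1, 4 and 4 of 8, with sums of 95.01 to 255.5 in Stem, 213.3 to 777.2 in Tuft, 736.8 to 1521 in Ent and 2267 and 3384 in EEC. Some markers of other epithelial types were called higher as well. Secretory and goblet markers were called higher than in Stem for 7 of 8 genes in Tuft, 6 in Ent and 1 in EEC, with sums of 783700 to 1181000, 237300 to 710400, and 37420 and 62140. Enteroendocrine markers were called higher for 4 of 8 in Tuft and 7 in Ent, with sums of 1774 to 27580 and 7484 to 27760. Of the 7 tuft markers in the files, 5 were called higher in Ent and 7 in EEC, with sums of 401.5 to 1066 and 3820 to 8078 against 67.21 to 103.1 in Stem. Of 7 absorptive markers, 2 were called higher and 3 lower in Tuft, where 4.23% of all genes were called lower, and 4 higher in EEC. In SecPDG, 4 of 7 tuft, 2 of 8 enteroendocrine and 2 of 7 absorptive markers were called higher than in Stem, and 3 absorptive markers lower. Of all genes 3.38% were called higher there and 1.59% lower. Whether these markers come from other cells, and the part of such cells in the results, was not tested.

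Scaling moved the size of the changes in Ent and EEC. With TMM the median log2 fold change of all genes averaging 50 or more was -0.30 in Ent and -0.31 in EEC, and with DESeq2's size factors it was 0.35 and 0.48. The median over the 50 genes moved with it, from -2.03 to -1.48 in Ent and from -2.50 to -1.83 in EEC. Under each of TMM, size factors, library totals and upper quartile factors, 49 of the 50 genes lay below the median of all genes in both. Of all genes called in Ent, 51.6% were lower with TMM and 24.4% with size factors, while every replication gene called was lower with both.

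**Figure D2:**
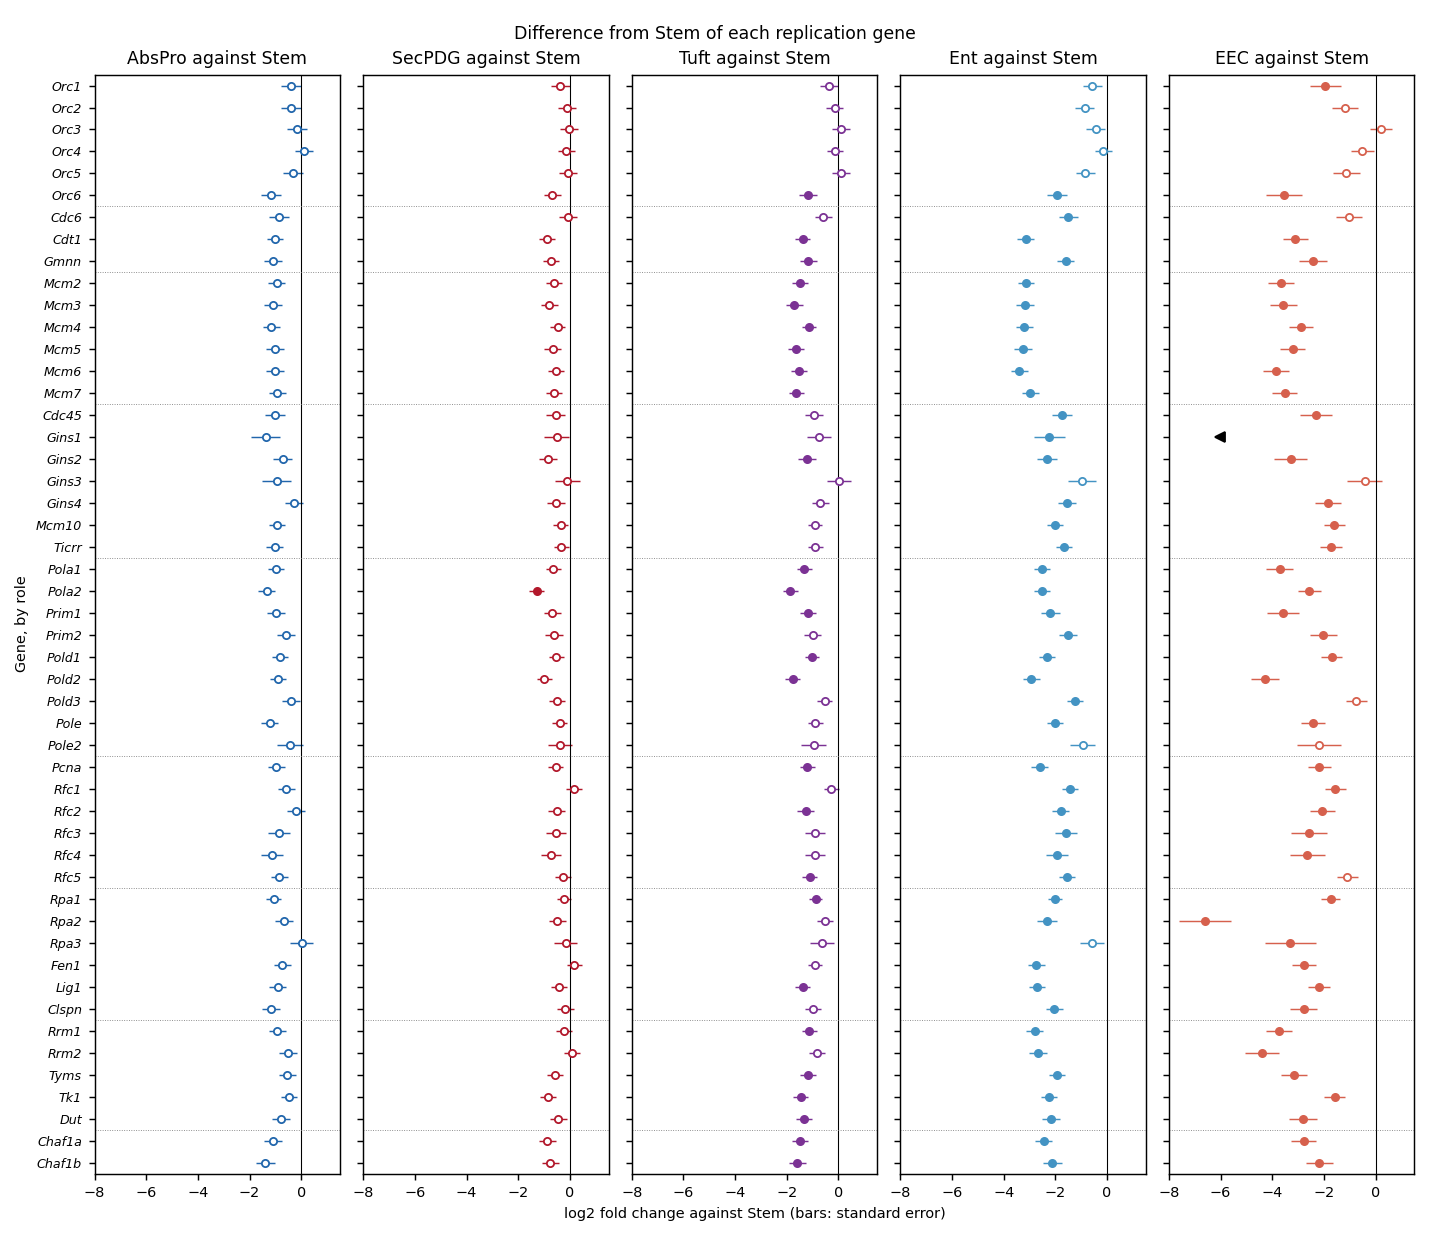
Log2 fold change against Stem (x axis) of each of the 50 genes (y axis, by role) in the 5 other cell types; points are edgeR estimates, bars their standard errors, filled points are called, and the black arrowhead is the bound for Gins1, at 0 counts in both EEC libraries. Filled points number 0 in AbsPro, 1 in SecPDG, 26 in Tuft, 42 in Ent and 41 in EEC.

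The MCM helicase, the hexamer of Mcm2 to Mcm7 that unwinds DNA at the fork, had the lowest summed level of the 9 roles, as a share of Stem, in Ent and EEC. All 6 were called lower in Tuft, Ent and EEC than in Stem, all 6 in Ent than in AbsPro, and all 6 in EEC than in SecPDG. Of all genes 4.23%, 11.5%, 9.13%, 7.97% and 10.1% were called lower in these comparisons, in that order. The median log2 fold change of the 6 genes against Stem was -1.03 in AbsPro, -0.61 in SecPDG, -1.57 in Tuft, -3.19 in Ent and -3.54 in EEC, and the summed MCM level in Ent was 10.9% of the Stem mean. Per kilobase of exon, Mcm3 (1150 normalized counts), Mcm6 (1101), Mcm7 (986), Mcm2 (858) and Mcm5 (828) were among the 7 highest means of the 50 genes in Stem.

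Mcm6, the MCM gene with the largest fall in Ent, had 4100, 5512 and 4839 normalized counts in the Stem libraries, 2167, 2962 and 1943 in AbsPro and 2586, 3419, 3332 and 4010 in SecPDG. Mcm6 had 1180, 1550, 1374, 1491 and 2774 in Tuft, 271, 257, 341, 740.2 and 684 in Ent and 376 and 296 in EEC. Every library of the 5 other cell types lay below every Stem library, and Ent and EEC lay below all Tuft libraries. Against Stem the change of Mcm6 was called in Tuft (log2 fold change -1.52, SE 0.31, adjusted p = 0.000172), Ent (log2 fold change -3.39, SE 0.33, adjusted p = 1.36e-11) and EEC (log2 fold change -3.86, SE 0.50, adjusted p = 1.5e-08) and missed the threshold in AbsPro (log2 fold change -1.03, SE 0.35, adjusted p = 0.163) and SecPDG (log2 fold change -0.53, SE 0.32, adjusted p = 0.435).

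Mcm2 had 2843, 3410 and 2424 normalized counts in Stem, 1139, 2385 and 965 in AbsPro and 1648, 2066, 1906 and 2027 in SecPDG. Mcm2 had 795, 1133, 815, 851 and 1502 in Tuft, 256, 209.9, 256, 438 and 487 in Ent and 345 and 136 in EEC. AbsPro 2 was far above the other AbsPro libraries and close to the lowest Stem library, and no range reached that of Stem. Its change against Stem was -1.50 with an SE of 0.30 in Tuft (adjusted p = 0.000152) and -3.14 with an SE of 0.33 in Ent (adjusted p = 7.29e-11) on the log2 scale. Mcm3 had 3240, 4055 and 3158 in Stem, 1239, 2668 and 978 in AbsPro and 1473, 2032, 2153 and 2345 in SecPDG. Mcm3 had 942, 987, 832, 829 and 1712 in Tuft, 275, 267, 396, 457 and 526 in Ent and 544 and 91.0 in EEC. It had the largest fall of the MCM genes in Tuft (log2 fold change -1.70, SE 0.32, adjusted p = 5.24e-05), with Tuft 5 well above the other 4 Tuft libraries.

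Mcm4 had 1822, 2274 and 2267 normalized counts in Stem, 1048, 1039 and 764 in AbsPro and 1390, 1540, 1483 and 1691 in SecPDG. Mcm4 had 1430, 805, 715, 686 and 1170 in Tuft, 138, 169, 243, 302 and 300.5 in Ent and 468 and 138 in EEC. Here AbsPro 2 did not stand out, the SecPDG libraries lay above all AbsPro libraries, and Tuft 1 was the highest Tuft library although it was the lowest for Mcm2, Mcm5, Mcm6 and Mcm7. Mcm4 fell least of the 6 in Tuft (log2 fold change -1.14, SE 0.29, adjusted p = 0.00242).

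Mcm5 had 3195, 2942 and 2262 normalized counts in Stem, 1154, 1966 and 982 in AbsPro and 1617, 1758, 1625 and 2038 in SecPDG. Mcm5 had 577, 1088, 805, 736 and 1292 in Tuft, 269, 269.6, 259.9, 381 and 277 in Ent and 582 and 76.4 in EEC. Every other group lay below all Stem libraries, and EEC 1 and EEC 2 differed most here among the MCM genes in absolute level. Mcm7 had 2821, 3001 and 2939 in Stem, 1365, 2078 and 1137 in AbsPro and 1562, 1764, 2161 and 2074 in SecPDG. Mcm7 had 439, 1037, 832, 787 and 1582 in Tuft, 282, 259, 278, 517 and 525 in Ent and 204 and 296 in EEC. Its Stem libraries lay close together, no other library reached them, and the change in Ent was the smallest of the 6 MCM genes there (log2 fold change -2.97, SE 0.32, adjusted p = 1.99e-10). For Mcm7, 13% of the exon length is shared with the neighbouring genes Ap4m1 and Cops6, and the counting did not use strand.

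**Figure D3:**
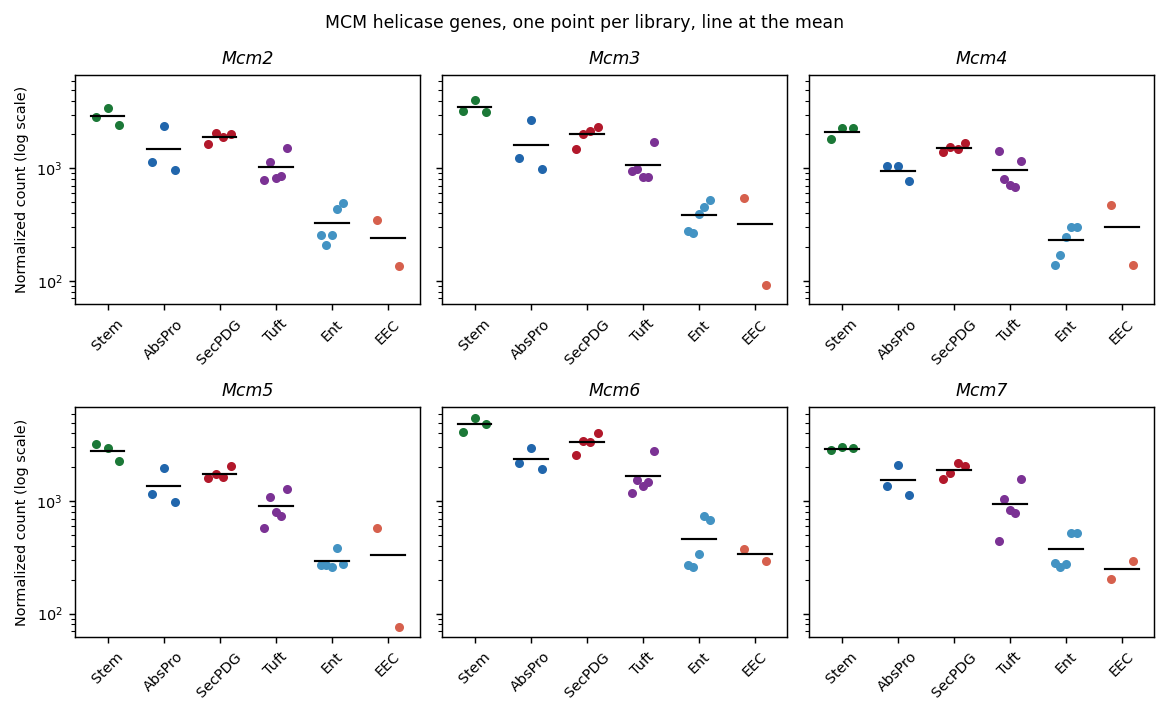
Normalized counts (log axis) of Mcm2 to Mcm7 in each library (points) by cell type, with the mean as a line. Stem libraries are highest for every gene, AbsPro 2 is raised for all but Mcm4, and Ent and EEC libraries lie below all Tuft libraries except for Mcm5 in EEC 1 and Mcm7 in Ent 4 and Ent 5, which exceed Tuft 1.

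Promoter letters were read in the RefSeq table of promoters (GRCm38.p6, 250 bases before to 50 after each start), which held 42 of the 50 genes. The letters searched on both strands for E2F sites were TTCCCGC, then also TTGGCGC, and then also TTCGCGC, and at least 1 of them stood in 26 of these 42 genes (61.9%), against 2487 of 27025 genes of the table (9.2%). CCAAT stood in 26 of 42 (61.9%) against 41.1%, and TTTGAA, searched for the CHR element of mitotic genes, in 5 of 42 (11.9%) against 20.2%. CCAAT can share letters with an E2F word read on the other strand, as in the Mcm7 stretch. The E2F letters stood in Mcm3, Mcm5, Mcm6 and Mcm7 of the 5 MCM genes in the table and not in Mcm2. They stood as well in Orc1, Orc3 and Orc4 of the origin recognition complex, none of which was called lower outside EEC. A match is a description of the sequence, not a site or a cause, and no match says only that these letters are not in this window. Gins2, Gmnn, Rfc2, Gins4, Prim2, Mcm4, Pole and Gins1 were not in the table. The stretches of 3 MCM promoters and of Orc3 are shown to set genes that were called lower beside one that was not, 5′ to 3′ on the strand of the gene, with the E2F letters in capitals.
Mcm5, chr8:75109348-75109375, plus strand: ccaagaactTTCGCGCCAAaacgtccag
Mcm6, chr1:128359733-128359760, minus strand: tggacgggtTTGGCGCGAAgtagctcag
Mcm7, chr5:138171848-138171875, minus strand: tgacgacgtTTCGCGCCAAtttcggttg
Orc3, chr4:34614965-34614992, minus strand: atgcctccctTTCCCGCacgccccgcct
In each MCM stretch 2 matches on opposite strands overlap, and in Orc3 there is 1. The matches begin 152 and 46 bases before the start in Mcm5 and Mcm6, 17 after it in Mcm7 and 40 before it in Orc3. These examples were picked, and their difference in matches did not hold across the genes. Prim1, Pold1, Rrm1 and Chaf1a, with 1 match each, were also called lower in Tuft, Ent and EEC. So were Mcm2, Pcna, Pola2, Pold2, Tk1 and Tyms, which had none of the letters.

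The origin recognition complex, which marks origins through the cell cycle, changed least. Its summed level was 82.3% of the Stem mean in AbsPro, 88.2% in SecPDG, 87.5% in Tuft, 64.7% in Ent and 60.2% in EEC. Of its 6 genes, 1 was called lower in Tuft, 1 in Ent and 2 in EEC, against 4.23%, 11.5% and 9.13% of all genes. The one called in all 3 was Orc6, the subunit least tightly bound to the others, with 348, 336 and 479.7 normalized counts in Stem, 148, 205 and 165 in AbsPro and 207, 221, 247 and 295 in SecPDG. Orc6 had 56.1, 201, 120.1, 171 and 276 in Tuft, 95.1, 57.4, 99.3, 109.5 and 152 in Ent and 18.1 and 43.7 in EEC. Its range lay below that of Stem in every other cell type, and the fall was -1.19 with an SE of 0.34 in Tuft, -1.93 with an SE of 0.38 in Ent and -3.54 with an SE of 0.69 in EEC on the log2 scale (adjusted p = 0.00762, 5.05e-05 and 3.6e-05). In EEC the estimated background was 69.0% of the Orc6 mean and 60.5% of the Orc1 mean, and its part in the result was not tested.

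Orc3 was the least changed of the 50 genes on average and the highest of the complex per kilobase. Orc3 had 577, 656 and 793 normalized counts in Stem, 755, 252 and 787 in AbsPro and 659.9, 762, 468 and 768 in SecPDG. Orc3 had 609, 644, 613, 807 and 903 in Tuft, 399.5, 462, 341, 762 and 505 in Ent and 174 and 1313 in EEC. The ranges overlapped Stem in every cell type, AbsPro 2 was the lowest of its group, and the EEC libraries were the lowest and the highest of the 22. No comparison with Stem was called, and the sign in Ent (log2 fold change -0.45) turned with size factors and with upper quartile factors. Without EEC 2 the value in EEC turned from 0.20 to -1.96. Orc1, an ATP-binding subunit that is loaded anew in each cycle in mammals, had 207, 211 and 336 in Stem, 154, 151, 154, 232 and 152 in Ent and 72.3 and 60.7 in EEC. It was called lower only in EEC (log2 fold change -1.94, SE 0.61, adjusted p = 0.00725), and DESeq2's Wald test did not call it. Orc2, Orc4 and Orc5 were not called in any comparison, and for Orc4 the sign in Ent turned under each other scaling.

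Of the licensing genes, Cdt1 and geminin (Gmnn) were called lower in Tuft, Ent and EEC, and Cdc6 in Ent only. Cdt1 had 1543, 1339 and 1012 normalized counts in Stem, 559.5, 969 and 387 in AbsPro and 587, 635, 762 and 824 in SecPDG. Cdt1 had 738, 396, 533, 319.7 and 495 in Tuft, 95.1, 126, 154, 214 and 129 in Ent and 195 and 116 in EEC. All other libraries lay below those of Stem, and no Ent library reached the lowest Tuft library. The fall of Cdt1 was -3.15 with an SE of 0.34 against Stem (adjusted p = 1.35e-10) and -2.14 with an SE of 0.35 against AbsPro (adjusted p = 1.19e-05), in Ent on the log2 scale. Gmnn, the inhibitor of Cdt1, had 495, 604 and 528 in Stem, 290.3, 207 and 267 in AbsPro and 222, 284, 335 and 462 in SecPDG. Gmnn had 196, 241, 153, 229 and 365 in Tuft, 113, 126, 121, 258 and 278 in Ent and 132 and 78.9 in EEC. Each range was below that of Stem, and against AbsPro the value in Ent was -0.51 with an SE of 0.37 and not called (adjusted p = 0.23), with its sign turning under size factors and upper quartile factors.

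Cdc6, the loader that acts with Cdt1, varied widely within Stem. Cdc6 had 153, 610 and 308 normalized counts in Stem, 196, 257 and 143 in AbsPro and 469.9, 303, 296 and 311 in SecPDG. Cdc6 had 371, 212, 184, 213 and 228 in Tuft, 152, 107, 124, 103 and 163 in Ent and 181 and 174 in EEC. All ranges overlapped that of Stem, and SecPDG 1 and Tuft 1 were far above the others of their groups. Its call in Ent (log2 fold change -1.50, SE 0.38, adjusted p = 0.00107) was made with overlapping ranges, and in SecPDG the value was -0.06 with an SE of 0.35.

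Of the 7 genes of helicase activation, 1 was called lower in Tuft, 6 in Ent and 6 in EEC, against 4.23%, 11.5% and 9.13% of all genes. The summed level of the 7 genes was 55.9% of the Stem mean in AbsPro, 73.4% in SecPDG, 54.9% in Tuft, 28.4% in Ent and 28.6% in EEC. Gins4 was the highest per kilobase, with 419, 503 and 469 normalized counts in Stem, 403, 381 and 364 in AbsPro and 139.9, 382, 304 and 460.3 in SecPDG. Gins4 had 199, 249, 212, 322 and 419.9 in Tuft, 126, 133, 97.0, 234 and 209 in Ent and 101 and 150.5 in EEC. It was just below all Stem libraries in AbsPro (-0.28 with an SE of 0.35) and called lower in Ent (log2 fold change -1.54, SE 0.35, adjusted p = 0.000346). Gins1 had 26.8, 193 and 200.1 in Stem, 23.4, 52.8, 5.78, 33.1 and 36.0 in Ent and no count in either EEC library. With a floor of 3 counts over the EEC libraries, Gins1 was at least 64.3-fold lower there than the Stem mean of 140.1, a mean that Stem 1 was far below. Gins3 was not called anywhere, with 119, 73.6 and 179.9 in Stem, 102, 17.1 and 70.3 in AbsPro, 277, 93.4, 41.7, 104 and 119 in Tuft and 66.9 and 110.4 in EEC, and its ranges overlapped Stem throughout. Gins2 was the gene called in Tuft (log2 fold change -1.21, SE 0.34, adjusted p = 0.00657), but 70.7% of its exon length is shared with Gse1 on the opposite strand, and its level is uncertain for that reason. Cdc45, Mcm10 and Ticrr were called lower in Ent and EEC, and Cdc45 had no count in EEC 2.

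Among polymerases and primase, 5 of 9 genes were called lower in Tuft, 8 in Ent and 7 in EEC, against 4.23%, 11.5% and 9.13% of all genes. Pola2, the regulatory subunit of polymerase alpha, was the only one of the 50 genes called lower in a progenitor. Pola2 had 1927, 1609 and 1212 normalized counts in Stem, 487, 812 and 574 in AbsPro and 331, 699, 744 and 814 in SecPDG. Pola2 had 319, 414, 317, 449.7 and 645 in Tuft, 263, 269.6, 305, 287 and 238 in Ent and 362 and 189 in EEC. Both progenitors lay below all Stem libraries at a similar level, -1.34 with an SE of 0.33 in AbsPro (adjusted p = 0.0159) and -1.29 with an SE of 0.30 in SecPDG (adjusted p = 0.00206). It fell furthest in Tuft among all 50 genes (log2 fold change -1.86, SE 0.29, adjusted p = 2.15e-06).

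Pold2, a small subunit of polymerase delta, was the highest of this group per kilobase and fell most in Ent and EEC. Pold2 had 1557, 1467 and 1265 normalized counts in Stem, 669, 1007 and 607 in AbsPro and 577, 853, 620 and 849 in SecPDG. Pold2 had 333, 478, 378, 281 and 603 in Tuft, 116, 197, 144, 278 and 192 in Ent and 92.2 and 60.7 in EEC. No range reached that of Stem, and the falls were -1.77 with an SE of 0.28 in Tuft, -2.93 with an SE of 0.31 in Ent and -4.27 with an SE of 0.54 in EEC (adjusted p = 3.6e-06, 1.57e-10 and 5.16e-09). Pold3, another subunit of the same enzyme that also serves break-induced repair, had 1249, 1339 and 1354 in Stem, 793, 825, 595, 976 and 1299 in Tuft, 445, 546, 446, 635 and 679.9 in Ent and 289 and 1208 in EEC. It was called lower in Ent alone (log2 fold change -1.25, SE 0.31, adjusted p = 0.000845), and EEC 1 and EEC 2 lay far apart. Pole2, of polymerase epsilon, had 21.4, 252 and 305 in Stem and 190, 182, 39.6 and 206 in SecPDG, with Stem 1 and SecPDG 3 far below the rest, and was not called in any comparison. Pole, the catalytic subunit of that enzyme, was -1.23 with an SE of 0.33 in AbsPro (adjusted p = 0.0404) and -0.40 with an SE of 0.30 in SecPDG.

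The sliding clamp gene Pcna had 986, 1444 and 1321 normalized counts in Stem, 601, 597 and 721 in AbsPro and 793, 633, 970.4 and 1002 in SecPDG. Pcna had 386, 536, 488, 451 and 808 in Tuft, 167, 181, 141, 298 and 242 in Ent and 86.8 and 427 in EEC. AbsPro, Tuft, Ent and EEC lay below all Stem libraries, while SecPDG overlapped Stem. Pcna was called lower in Tuft (log2 fold change -1.21, SE 0.29, adjusted p = 0.00172), Ent (log2 fold change -2.60, SE 0.33, adjusted p = 9.86e-09) and EEC (log2 fold change -2.18, SE 0.44, adjusted p = 7.75e-05). Of the 5 loader genes, Rfc1, the large subunit, was near its Stem level in SecPDG. Rfc1 had 1808, 2114 and 1933 in Stem, 1238, 1418 and 1243 in AbsPro and 2055, 2109, 2117 and 2495 in SecPDG. Rfc1 had 1423, 1555, 1256, 1399 and 2414 in Tuft, 440.5, 599, 552, 1072 and 918 in Ent and 403 and 888 in EEC. SecPDG lay above all AbsPro libraries (0.76 with an SE of 0.31, adjusted p = 0.186) and overlapped Stem (0.17 with an SE of 0.30), a difference whose sign turned under library totals. Rfc2 had 880.5, 1224 and 1147 in Stem, 1000, 1023 and 819 in AbsPro, 244, 444, 202, 449.7 and 842 in Tuft and 359, 322, 185, 333 and 374 in Ent, overlapping Stem in AbsPro and called lower in all 3 mature cell types. Rfc3 had 301, 300.2 and 347 in Stem and 243, 61.8 and 213 in AbsPro, where AbsPro 2 was the lowest by far. For Rfc2, Rfc4 and Rfc5, 19.1%, 13.4% and 17.8% of the exon length is shared with another gene.

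**Figure D4:**
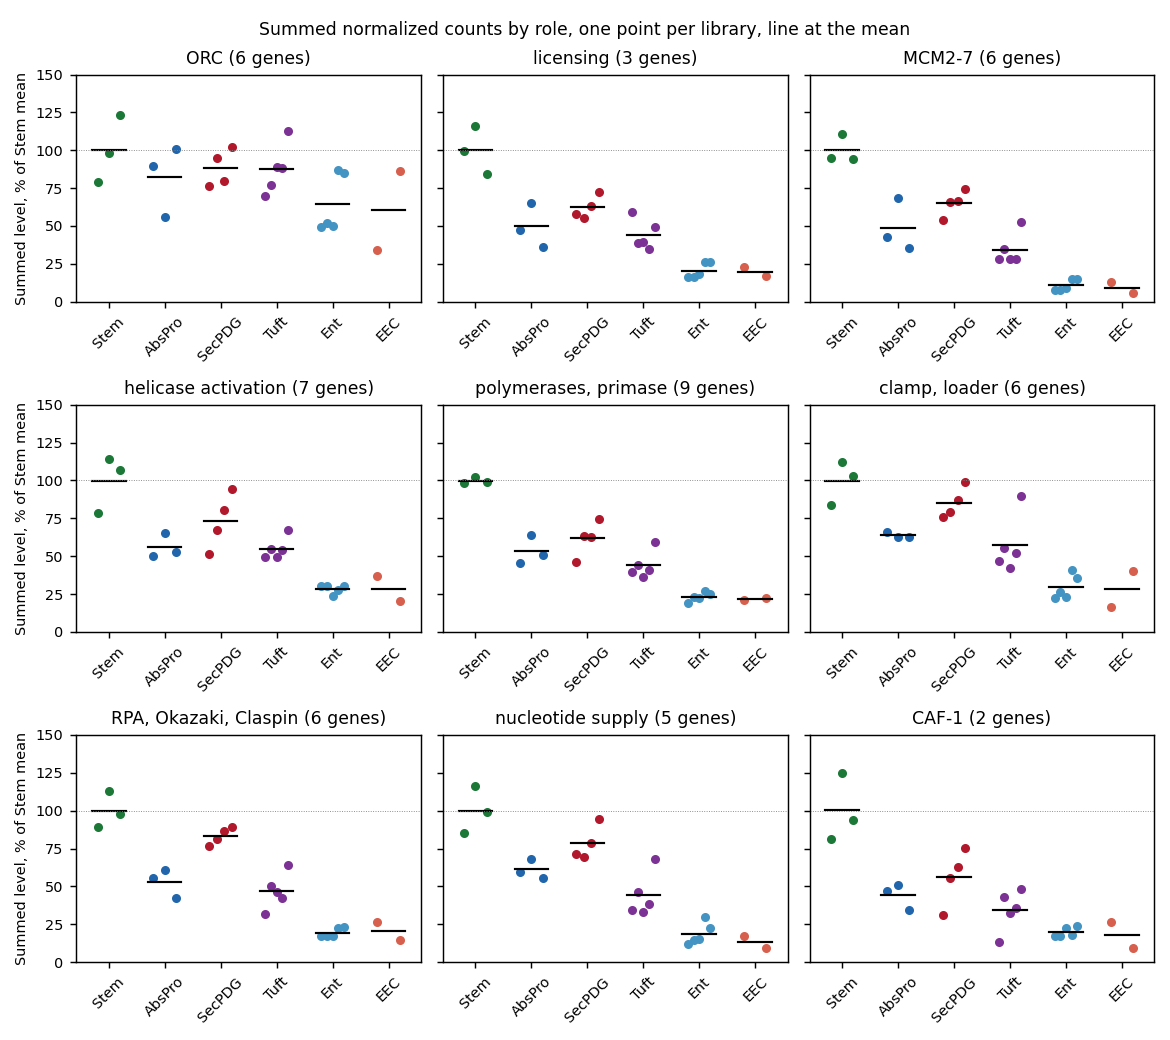
Summed normalized counts of the genes of each role in each library (points), as a percentage of the Stem mean, with the mean of each cell type as a line. The MCM genes go from 100% in Stem to a mean of 10.9% in Ent, and the origin recognition complex to 64.7%.

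Genes of single-strand binding, Okazaki fragment joining and the fork checkpoint were nearer to Stem in SecPDG than in AbsPro, with summed levels of 83.5% and 53% of the Stem mean. Fen1, the flap nuclease of Okazaki fragments, had 920.2, 1057 and 997 normalized counts in Stem, 669.7, 655 and 459 in AbsPro and 974, 1277, 1119 and 1099 in SecPDG. Fen1 had 338, 594, 402, 544 and 739.5 in Tuft, 136, 117, 98.2, 229 and 159 in Ent and 188 and 114 in EEC. SecPDG overlapped Stem (0.17 with an SE of 0.29, a sign that turned under library totals), lay above all AbsPro libraries (0.90 with an SE of 0.30, adjusted p = 0.0614) and above all Tuft libraries, where the change was called (log2 fold change -1.07, SE 0.27, adjusted p = 0.00581). That call was lost on leaving out SecPDG 3, SecPDG 4, Tuft 1, Tuft 2 or Tuft 3. Rpa1, the large subunit of the single-strand binding protein, had 1590, 1630 and 1288 in Stem, 735, 637 and 778 in AbsPro and 1280, 1271, 1356 and 1244 in SecPDG. AbsPro lay below both others, and the test gave -1.07 with an SE of 0.30 against Stem (adjusted p = 0.0547) and 0.85 with an SE of 0.29 for SecPDG against AbsPro (adjusted p = 0.0668). Clspn, the fork checkpoint mediator, had 663, 1321 and 1181 in Stem, 641, 300.1 and 460.5 in AbsPro and 790.3, 957, 889 and 1113 in SecPDG, with AbsPro again below both.

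Lig1, the ligase of the lagging strand, had the highest level per kilobase over the 6 cell types. Lig1 had 3412, 4154 and 3707 normalized counts in Stem, 1944, 2736 and 1260 in AbsPro and 2684, 2594, 2994 and 2931 in SecPDG. Lig1 had 878, 1519, 1510, 1296 and 2011 in Tuft, 552, 489, 491, 656 and 720 in Ent and 1148 and 524 in EEC. Each group lay below all Stem libraries, and Lig1 was called in Tuft (log2 fold change -1.38, SE 0.29, adjusted p = 0.000337) and Ent (log2 fold change -2.69, SE 0.31, adjusted p = 8.11e-10). Rpa2 had 351, 525 and 426 in Stem, 265, 312, 425, 216 and 311 in Tuft, 58.5, 52.8, 72.8, 93.5 and 158 in Ent and 0 and 7.28 in EEC, overlapping Stem in Tuft and lowest in EEC, where its mean was below the estimated background. Rpa3, the smallest subunit, had 98.7, 208 and 145 in Stem, 167, 120.4 and 173 in AbsPro, 69.6, 78.2, 13.9, 87.4 and 206 in Tuft and 55.6, 87.2, 84.3, 127 and 152 in Ent, and was called lower in EEC only. Its value in AbsPro (0.01 with an SE of 0.46) changed sign under each other scaling.

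All 5 genes of nucleotide supply were called lower in Ent and in EEC, and 4 in Tuft, against 11.5%, 9.13% and 4.23% of all genes. Rrm1, the large subunit of ribonucleotide reductase, had 2000, 2758 and 2705 normalized counts in Stem, 1433, 1368 and 1114 in AbsPro and 1887, 1763, 2304 and 2477 in SecPDG. Rrm1 had 819, 1162, 762, 1066 and 1835 in Tuft, 209, 332, 289, 588 and 345 in Ent and 235 and 148 in EEC. SecPDG overlapped Stem and lay above all AbsPro libraries, and Ent and EEC lay below all the rest. Rrm1 was called in Tuft (log2 fold change -1.13, SE 0.29, adjusted p = 0.00272), Ent (log2 fold change -2.81, SE 0.31, adjusted p = 4.7e-10) and EEC (log2 fold change -3.74, SE 0.50, adjusted p = 2.21e-08). Rrm2, the small subunit of that enzyme, had 763, 1261 and 636 in Stem, 459.9, 982 and 406 in AbsPro and 1060, 988, 737 and 976 in SecPDG. Rrm2 had 489, 587, 468, 360 and 591 in Tuft, 145, 109, 86.6, 156 and 209 in Ent and 101 and 0 in EEC. Its SecPDG mean was above that of Stem (0.08 with an SE of 0.32, a sign that turned under library totals), and its value in Tuft missed the threshold (log2 fold change -0.83, SE 0.32, adjusted p = 0.038). Tk1, the salvage kinase of thymidine, had 877, 1049 and 858 in Stem, 587, 849.9 and 555 in AbsPro and 284, 496, 644 and 633 in SecPDG. Tk1 had 386, 292, 297, 271 and 426 in Tuft, 132, 158, 158, 296 and 222 in Ent and 389 and 244 in EEC. It was lower in SecPDG than in AbsPro by the fitted value (-0.37 with an SE of 0.31, adjusted p = 0.78), where Rrm1 (0.69) and Rrm2 (0.61) were above 0. Tyms and Dut, which make and guard thymidylate, were called lower in all 3 mature cell types.

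The chromatin assembly genes Chaf1a and Chaf1b, which place new nucleosomes behind the fork, were called lower in Tuft, Ent and EEC. Chaf1b had 624, 689 and 492 normalized counts in Stem, 312, 230.2 and 132 in AbsPro and 216, 372, 399 and 442 in SecPDG. Chaf1b had 81.8, 237, 172, 200.1 and 286 in Tuft, 129, 136, 201, 105 and 120.5 in Ent and 242 and 51.0 in EEC. It had the lowest fitted value of the 50 genes in AbsPro (log2 fold change -1.40, SE 0.37, adjusted p = 0.0383), where all 3 libraries were below Stem. Chaf1a had 1063, 1890 and 1448 in Stem, 665, 819.8 and 577 in AbsPro and 427, 772, 903 and 1111 in SecPDG. Chaf1a had 187, 649.9, 499, 539 and 708 in Tuft, 234, 219, 259, 269 and 367 in Ent and 311 and 138 in EEC, with Tuft 1 far below the other Tuft libraries. For Chaf1a, 33.6% of the exon length is shared with Ubxn6.

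Of 38 other replication genes, 1 was called lower in AbsPro than in Stem, 1 in SecPDG, 9 in Tuft, 28 in Ent and 22 in EEC, and 0 higher in any. Of all genes 0.0922%, 1.59%, 4.23%, 11.5% and 9.13% were called lower, in that order. The single call in SecPDG is thus near the share of all genes. The one in AbsPro was Timeless, of the fork protection complex (log2 fold change -1.72, SE 0.34, adjusted p = 0.0016), and the one in SecPDG was Tonsl, which acts at stalled forks (log2 fold change -1.28, SE 0.30, adjusted p = 0.00186). Top2a, the topoisomerase that untangles replicated DNA, had 4914, 8390 and 8667 normalized counts in Stem, 2911, 3327 and 4616 in AbsPro and 7827, 8249, 8916 and 9301 in SecPDG. Top2a had 3813, 3913, 3990, 3288 and 6005 in Tuft, 436, 754, 533, 1245 and 1173 in Ent and 304 and 107 in EEC. SecPDG lay above all AbsPro libraries (log2 fold change 1.25, SE 0.36, adjusted p = 0.0215). Asf1b, a histone chaperone, was called lower in Tuft (log2 fold change -1.60, SE 0.38, adjusted p = 0.00112) and Ent (log2 fold change -2.06, SE 0.40, adjusted p = 4.55e-05). The highest on average were Samhd1, which degrades nucleotides outside S phase, at 0.32 with an SE of 0.29 in Ent, and Rrm2b, the reductase subunit used outside S phase, at 1.46 with an SE of 0.63 in EEC, neither of them called.

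Of 22 genes of the E2F and RB network, 5 were called lower in Tuft, 12 in Ent and 11 in EEC, against 4.23%, 11.5% and 9.13% of all genes. In AbsPro and SecPDG 0 were called lower, against 0.0922% and 1.59%. Cyclin E1 (Ccne1) had 275, 559 and 459 normalized counts in Stem, 69.6, 149, 162, 98.9 and 166 in Tuft and 74.6, 43.6, 53.1, 92.4 and 67.8 in Ent, without overlap (log2 fold change -2.71, SE 0.43, adjusted p = 1.7e-06). Cyclin A2 (Ccna2) fell in Tuft (log2 fold change -1.22, SE 0.29, adjusted p = 0.00162) and Ent (log2 fold change -2.61, SE 0.32, adjusted p = 4.26e-09). Rb1, the repressor of E2F factors, had 429.9, 383 and 427 in Stem, 599, 1110, 631 and 819 in SecPDG, 649.8, 722, 544, 944 and 901 in Ent and 166 and 1192 in EEC, above all Stem libraries in SecPDG and Ent, but not called (log2 fold change 0.87, SE 0.37, adjusted p = 0.0384 in Ent). Lin52, of the DREAM and MuvB complexes, had the highest average in this list after Rb1 and was at 1.66 with an SE of 0.67 in EEC, not called.

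Of 16 markers of G2 and mitosis, 0 were called lower in AbsPro or SecPDG, against 0.0922% and 1.59% of all genes. Called lower were 8 in Tuft, 16 in Ent and 16 in EEC, against 4.23%, 11.5% and 9.13%. Their median log2 fold change against Stem was -0.32 in AbsPro, with 15 of 16 below 0, and -0.15 in SecPDG, with 11 of 16 below 0, where the medians of the 50 replication genes were -0.93 and -0.51. Plk1, a mitotic kinase, was the only one called higher than Stem, in SecPDG, where 3.38% of all genes were. Plk1 had 1389, 1655 and 1481 normalized counts in Stem, 2062, 1412 and 2143 in AbsPro and 4259, 5084, 3925 and 4894 in SecPDG. All SecPDG libraries lay above those of Stem (log2 fold change 1.59, SE 0.34, adjusted p = 0.000597) and of AbsPro (log2 fold change 1.28, SE 0.33, adjusted p = 0.00858). Ube2c and Ccnb2, which act in mitosis, were called lower in Tuft than in SecPDG (log2 fold change -1.08, SE 0.28, adjusted p = 0.00756 and log2 fold change -1.42, SE 0.30, adjusted p = 0.00102). Cenpe, a kinetochore motor, was called lower in Ent (log2 fold change -1.94, SE 0.33, adjusted p = 5.28e-06) and not in Tuft (log2 fold change -0.91, SE 0.32, adjusted p = 0.0254).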

How the data were processed

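RNA from sorted colon crypt cells was sequenced in 22 libraries with a low-input kit. Per the study's methods and the submitters' processing notes, the authors aligned reads to mm10 with STAR 2.5.2a and counted them per gene with HTSeq 0.6.1p1 without strand, and the deposited values are raw counts. Overlapping genes can therefore take each other's reads. The submitters' splicing and polyadenylation tables were not used here.

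Normalized counts are counts scaled by TMM to the mean effective library size. All 22 libraries entered one edgeR 4.0.16 quasi-likelihood fit with cell type as the term, after filterByExpr, and p-values were adjusted by Benjamini-Hochberg over 22781 genes. Calls needed an adjusted p under 0.01 together with an average of 50 normalized counts or more. The 5 rows naming no gene were left out of library sizes and tests; reads outside named genes were 53.95% to 91.64% of a library. The fit was tested on simulated data. Correlations between same-numbered libraries of the cell types compared ran from -0.321 to 0.444, and no block entered the main design.

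The 50 genes, the other lists and the rule for named genes (in each role the highest per kilobase and the most and least changed, plus the MCM, clamp, licensing and reductase genes) were chosen with earlier results of these data known. Other genes with values, such as Rpa1, Pold3, Pole, Clspn, Timeless and Tonsl, were chosen after their values were seen. Other scalings, tests, filters, thresholds and left-out libraries were tried. Figures were drawn with matplotlib 3.10.9.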

Additional observations from a re-analysis of the deposited data

Results flagged for a closer look

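In groups of 4 or 5 libraries, the highest or lowest library of 150 pairs of gene and cell type was compared with its group by Dixon's test, which by chance picks about 1 in 20 groups, and 11 stood apart. Tuft 5 was the highest for 3 genes, with 1712 normalized counts of Mcm3 against 829.2 to 986.9 in the other Tuft libraries, 2774 of Mcm6 against 1180 to 1550, and 2414 of Rfc1 against 1256 to 1555. Tuft 5 was the highest Tuft library for 37 of the 50 genes and the deepest of them, with the lowest background. Ent 4 was the highest for 3 genes, with 231.5 of Orc1 against 151.4 to 153.7, 380.9 of Mcm5 against 259.9 to 276.9 and 160.8 of Rfc3 against 80.87 to 95.54. Cdc6 was high in SecPDG 1, at 469.9 against 295.7 to 311.4, and in Tuft 1, at 371 against 184.5 to 227.5. Rfc1 was high in SecPDG 4, at 2495 against 2055 to 2117. Pole2 was low in SecPDG 3, at 39.6 against 181.5 to 205.7, and Rfc2 was low in Ent 3, at 184.8 against 322.4 to 373.9.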

How the results depend on the processing

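Of 169 called pairs of gene and comparison, 76 were called in every alternative and none turned sign. The values below are counts of the 50 genes called lower, each with the percentage of all genes of that analysis in parentheses. AbsPro against Stem, 0 in the report, gave 1 with DESeq2's Wald test (0.5%), 2 with size factors (0.198%), library totals (0.228%) or upper quartile factors (0.202%), 10 in a fit of those cell types alone (1.07%), 3 at an adjusted p under 0.05 (0.263%) and 7 without the libraries over 1500 background CPM (0.405%). SecPDG against Stem, 1 in the report, gave 2 (2.33%), 5 (4.58%) and 2 (2.22%) with those scalings, 7 in the fit of those cell types alone (5.37%), 2 at an adjusted p under 0.05 (2.92%), 0 with an older edgeR fit (0.689%) and 2 without the high-background libraries (2.98%). Tuft against Stem gave 14 with the older fit (2.03%), and EEC against Stem gave 12 in the fit of those cell types alone (2.88%). Ent against AbsPro gave 17 with DESeq2 (3.26%) and 12 without the high-background libraries (0.886%). Tuft against SecPDG, 1 in the report, gave 4 with DESeq2 (0.677%) or no filter (0.659%), 0 with library totals (0.154%) or the older fit (0.0351%), 2 with upper quartile factors (0.32%), 9 in the fit of those cell types alone (2.88%), 7 without the high-background libraries (1.01%) and 10 at an adjusted p under 0.05 (1.3%). EEC against SecPDG gave 18 with DESeq2 (8.41%) and 11 in the fit of those cell types alone (5.54%). The cause of these differences was not tested. The older fit and the removal of high-background libraries were chosen after seeing the data.

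Leaving out 1 library in turn gave 0 to 1 for SecPDG against Stem (0 without Stem 1, SecPDG 1 or SecPDG 2), 15 to 29 for Tuft against Stem, 40 to 43 for Ent against Stem, 33 to 42 for EEC against Stem, 19 to 30 for Ent against AbsPro, 0 to 10 for Tuft against SecPDG (10 without Tuft 5) and 22 to 35 for EEC against SecPDG. For the difference between lineages it gave 0 to 1, with the 1 call made without AbsPro 3. A lone EEC library is assumed to vary like the other groups. Orc3 in EEC turned to -1.96 on the log2 scale against Stem and -1.93 against SecPDG without EEC 2, and was 0.80 and 0.78 without EEC 1.

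With the replicate number as a block, counts were 1 for AbsPro (0.162% of all genes), 2 for SecPDG (2.36%), 31 for Tuft (8.19%), 43 for Ent (15.8%) and 40 for EEC (10.3%) against Stem, 29 for Ent against AbsPro (14.7%), 11 for Tuft (1.37%) and 27 for EEC (9.7%) against SecPDG. Same-numbered libraries, each taken relative to the mean of its cell type, correlated at -0.321 to 0.444. Libraries of different numbers were not compared, so whether a number marks a shared mouse or sort is not known.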
